A study of Mus musculus with 14 samples.

Results

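The segment described here is an 80 kb stretch of mouse chromosome 9, chr9:100580001-100660000 in GRCm38. It holds the upstream and the canonical start regions of Stag1. Stag1 (ENSMUSG00000037286.15) encodes a STAG subunit of cohesin, the ring-shaped complex that holds sister chromatids together and folds chromatin into loops. Loops form where cohesin, moving along the fibre, is halted, most often at sites bound by CTCF. Stag1 is read from the plus strand, and its first annotated transcript starts at position 100597798, the start that the study named SATS. The remaining annotated starts in the segment, called canonical, lie between 100643448 and 100643770, 45.6 kb further along. Of the annotated transcripts, 10 begin there. The paper reports further starts within the gene, which were not examined here. The processed pseudogenes Gm47803 and Gm8661 were the only other annotated genes in the segment.

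Contacts were measured by UMI-4C, in which crosslinked chromatin is cut, ligated and sheared, and the fragments joined to 1 chosen end, the bait, are counted once per molecule by a unique molecular identifier (UMI). The untreated mouse embryonic stem cells (ESC) were grown in 2i-LIF, which keeps them naive, and the untreated neural stem cells (NSC) in medium with EGF and FGF. No strain, genotype or number of cultures is given in the labels, so p-values measure the spread between these samples, which may be technical. Nanog bait 1 was sampled in 4 ESC and 3 NSC libraries, Nanog bait 2 in 3 ESC and 1 NSC library, and the CTCF bait in 2 ESC and 1 NSC library. The labels do not explain the bait names, which are used here as given and say nothing of a locus or a bound factor. The libraries hold contacts and no expression, so the cell types could not be checked against markers.

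A member of the segment is a partner fragment end on chromosome 9 that lies inside it and more than 10 kb from the bait of its own library. The segment has 185 GATC sites and hence 370 fragment ends. Of these, 352 had at least 1 UMI in at least 1 library, out of 116781 ends on all chromosomes in the whole series. All 352 lay at GATC sites, against 0.481% of the ends of the region when positions were moved by 100 bp. The 18 ends without a UMI all belonged to fragments of 5 to 31 bases. By contrast, each of the 328 ends on fragments of 40 bases or more was seen. Of the 42 ends on shorter fragments, 24 were seen as well, on fragments of 16 to 32 bases. Of the 352 ends, 88 lay upstream of Stag1, 262 in its introns and 2 in its exons.

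Libraries held 7172 to 51412 UMIs, of which 3221 to 24766 fell in the region, which reaches from 10 kb out to 1 Mb from the bait in both directions. A share is the percentage of these region UMIs. The smallest share that 3 UMIs can show ranged from 0.0121% to 0.0931%, and intervals of single libraries are 95% Wilson intervals, which cover counting error only. Among the bait 1 libraries, replicate 4 of ESC repeated replicate 1, replicate 3 repeated replicate 2, and replicate 3 of NSC repeated replicate 1. These pairs shared 82.6% to 85.7% of their ends on other chromosomes, against at most 0.641% for 79 unlinked pairs. Each such pair of files was counted as 1 sample, so bait 1 has 2 ESC and 2 NSC samples. A further 9 pairs of libraries shared 1.92% to 12.9% and are called linked. By these links, batch 1 of bait 1 held the first ESC and the first NSC sample with their repeats, and batch 2 held ESC replicate 2 with its repeat and NSC replicate 2.

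The sequences on which the measurements turn are the bait ends and the starts. Each is read from the plus strand of GRCm38, and in the bait ends and the leading end the cut site GATC is in capitals. The leading end is that with the highest mean share from both Nanog baits, with the cell types weighted equally. Nanog bait 1 lies in an intron of Stag1, 22.2 kb from the SATS start and 23.5 kb from the first canonical start. Nanog bait 2 lies in an intron as well, 43.9 kb above the SATS start and 1.75 kb below the first canonical start. The CTCF bait is outside Stag1, 142 kb below the SATS start and 188 kb below the canonical starts.
Nanog bait 1, chr9:100619959-100620018: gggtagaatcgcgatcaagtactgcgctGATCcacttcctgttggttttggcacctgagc
Nanog bait 2, chr9:100641669-100641728: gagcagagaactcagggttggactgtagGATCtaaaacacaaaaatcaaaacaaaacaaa
CTCF bait, chr9:100455348-100455407: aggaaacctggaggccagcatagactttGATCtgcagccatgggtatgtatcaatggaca
End with the highest share from both Nanog baits, chr9:100630297-100630356: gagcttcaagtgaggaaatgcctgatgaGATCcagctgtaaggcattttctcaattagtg

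The 2 start regions differ in base composition, and the 150 bases that precede each are shown with CG dinucleotides in capitals. From 250 bases before to 50 after the start, the SATS start held 8 CG dinucleotides and 54.0% G and C. The first canonical start held 43 CG dinucleotides and 73.7% G and C. Among 32851 RefSeq promoters of the same length and build (GRCm38.p6), 54.2% had as many CG dinucleotides as the SATS start or fewer, and 97.8% had as many as the canonical start or fewer.
Before the SATS start, chr9:100597648-100597797: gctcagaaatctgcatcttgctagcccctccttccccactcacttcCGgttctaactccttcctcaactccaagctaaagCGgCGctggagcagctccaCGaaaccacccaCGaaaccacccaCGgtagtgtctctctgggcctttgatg
Before the first canonical start, chr9:100643298-100643447: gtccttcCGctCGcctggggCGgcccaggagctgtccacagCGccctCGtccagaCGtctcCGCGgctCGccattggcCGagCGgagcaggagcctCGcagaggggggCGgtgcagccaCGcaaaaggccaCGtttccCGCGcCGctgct

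The letters CCANNAGNNGGC, a core of the CTCF motif, were searched on both strands of the segment and occurred 3 times. The first match, CCAATAGAGGGC, lies on the minus strand 9935 bases before the SATS start. The other two, CCAGCAGAGGGC and CCACCAGATGGC, lie on the plus strand in exonic sequence 125 and 183 bases after the first canonical start. No match lay within 5 kb of Nanog bait 1, 2 lay within 5 kb of Nanog bait 2 (those after the canonical start), and 1 lay within 5 kb of the CTCF bait. Thus 2 of the 8 windows of 10 kb in the segment (25.0%) held the letters, against 41.0% of the 200 windows of the region around bait 1. A match is a description of the letters and no measurement of binding.

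From Nanog bait 1, at the middle of the segment, the segment share was somewhat higher in ESC than in NSC, within the spread that so few samples allow. Outside the 10 kb left out, 270 fragment ends were available. The segment share was 20.4%, 25.7%, 23.9% and 20.2% in ESC replicates 1 to 4. In NSC it was 19.8%, 19.3% and 18.7% in replicates 1 to 3. The ESC values all lay above the NSC values, but ESC replicates 1 and 4 lay closer to NSC than to the other ESC libraries. Over the samples, the ESC mean was 22.4% ± 2.97 (SD, n = 2) and the NSC mean 19.3% ± 0.0178 (SD, n = 2). The difference of 3.14 percentage points gave p = 0.333 in a two-sided exact permutation test, the smallest p that 2 against 2 samples can give. Within batch 1 the difference was 1.05 points and within batch 2 it was 5.22 points. With the region narrowed to 500 kb it was 0.613 points, with all chromosome 9 UMIs as the total 5.61 points and with all UMIs 5.76 points.

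From Nanog bait 2 the segment share was higher in every ESC library than in the NSC library. Here 284 ends were available, and the bait lies 18.3 kb from the upper edge. The shares were 20.5%, 27.7% and 24.9% in ESC replicates 1 to 3 and 15.4% (Wilson interval 14.5% to 16.3%) in NSC. The lowest ESC library, replicate 1, had an interval of 19.6% to 21.5%, which did not reach that of NSC. The ESC mean was 24.4% ± 3.59 (SD, n = 3), 8.97 points above NSC, with p = 0.25 in the exact permutation test, the smallest possible with 3 against 1. Replicate 1, the ESC library that is linked to the NSC library, was 5.15 points above it. Among the ESC libraries of both Nanog baits the deeper ones had the lower shares. Drawing the same number of region UMIs at random from each library left differences of 3.03 points from bait 1 and 8.33 points from bait 2. A random draw keeps the expected share of a library, so it cannot show whether the shares depend on depth. Counting each end once, whatever its UMIs, left 0.181 and 3.97 points. Of the segment ends with a UMI, 84.3% from bait 1 and 85.9% from bait 2 were seen in every library. The number of segment ends can therefore differ little between libraries, whatever the cell type.

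From the CTCF bait, which views the whole segment from 125 kb to 205 kb away, the order of the cell types was the opposite. All 370 ends were available and 342 had a UMI. The segment share was 5.81% (5.53% to 6.11%) and 5.89% (5.22% to 6.63%) in the ESC libraries and 7.82% (7.28% to 8.41%) in the NSC library. The ESC libraries lay close together although replicate 1 was the deepest of the series, and the NSC interval lay above both. The difference was -1.97 points, with p = 0.333 in the exact permutation test, the smallest possible with 2 against 1. Against ESC replicate 1 alone, the library most closely linked to NSC, it was -2.01 points. In a random draw to equal depth, which keeps the expected share, it was -1.93 points. It was -4.08 points in the region of 500 kb and -0.501 points with each end counted once (exact permutation p = 1.00). The direction depended on the denominator. With all chromosome 9 UMIs as the total the difference was -0.450 points, and with all UMIs it was 0.0111 points.

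**Figure D1:**
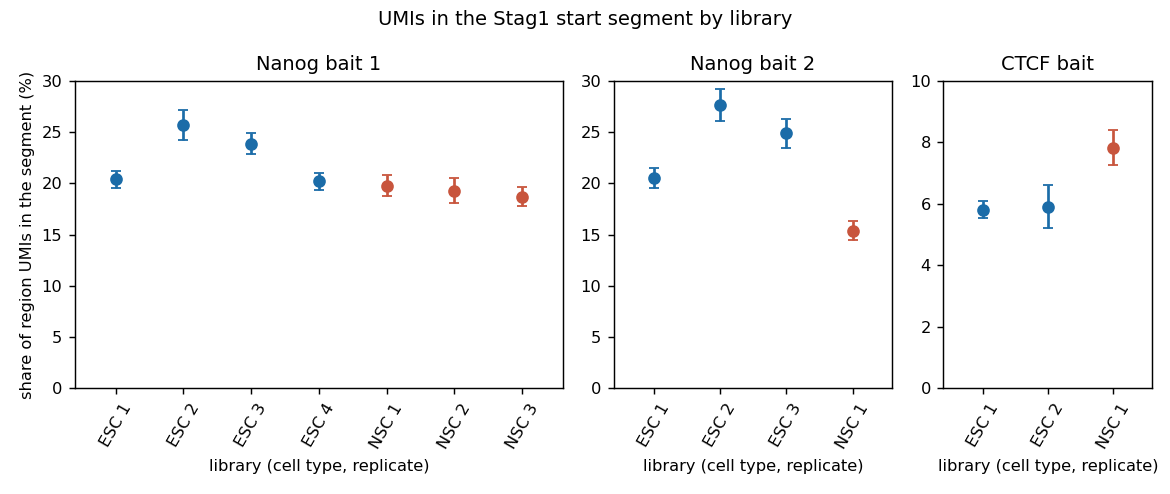
Share of region UMIs in the segment (%, y axis) in each library, with 95% Wilson intervals, in 1 panel per bait; ESC are blue and NSC red, and the CTCF bait has its own scale. The ESC libraries lie above NSC from both Nanog baits (20.2% to 25.7% against 18.7% to 19.8%, and 20.5% to 27.7% against 15.4%), and below NSC from the CTCF bait (5.81% and 5.89% against 7.82%).

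The neighbouring stretches were measured in the same way to see whether the segment moved on its own. From Nanog bait 1, the 80 kb below the segment took 17.9% ± 0.0859 (SD, n = 2) for ESC against 14.3% ± 1.18 (SD, n = 2) for NSC. The next 80 kb above, inside the Stag1 body, took 10.3% ± 0.911 in ESC and 7.33% ± 0.251 in NSC. Both neighbours were therefore higher in ESC too, as the segment was. The log2 ratio of the segment to the stretch above was 1.11 in ESC (1.07 to 1.16) and 1.40 in NSC (1.36 to 1.43), so relative to that stretch the segment was lower in ESC (difference -0.28, exact permutation p = 0.333). Relative to the stretch below, the samples of both cell types overlapped (0.19 to 0.45 in ESC and 0.35 to 0.52 in NSC).

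From Nanog bait 2 the stretch below took 19.1% ± 1.06 (SD, n = 3) in ESC and 15.3% in NSC, and the stretch above took 11.4% ± 0.784 and 8.82%. On the log2 scale the ESC share was above the NSC share by 0.33 in the stretch below, 0.37 in the stretch above and 0.66 in the segment. The log2 ratio of the segment to the stretch below was 0.14 to 0.58 in ESC and 0.01 in NSC (exact permutation p = 0.5). Seen from the CTCF bait, the segment was higher in NSC and the stretch above it higher in ESC, at 5.22% and 5.14% against 4.24% in NSC (exact permutation p = 0.333). The stretch below differed little, with 10.2% (9.80% to 10.5%) and 10.6% (9.76% to 11.6%) in ESC and 9.80% (9.19% to 10.4%) in NSC, and the intervals overlapped (exact permutation p = 0.667). The log2 ratio of the segment to the stretch above was 0.15 and 0.20 in ESC and 0.88 in NSC. This difference of -0.71 gave p = 0.333 in the exact permutation test, again the smallest possible.

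**Figure D2:**
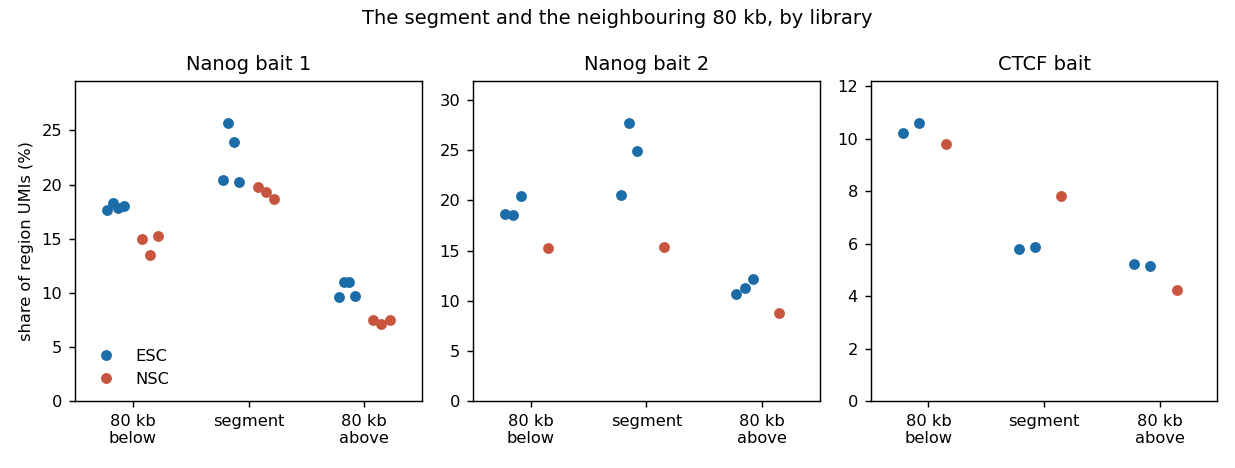
Share of region UMIs (%, y axis) in the 80 kb below the segment, in the segment and in the next 80 kb above it (x axis), with 1 point per library, ESC in blue and NSC in red. From the Nanog baits ESC is higher in all 3 stretches, whereas from the CTCF bait ESC is higher in the stretch above (5.22% and 5.14% against 4.24%), close to NSC in the stretch below and lower in the segment.

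A comparison at equal distances from the bait asked whether the segment side was favoured over the other side. For bait 1 the part of the segment below the bait was set against the part above it, for bait 2 the part below against its mirror image, and for the CTCF bait the whole segment against its mirror image. The log2 ratio from bait 1 had a mean of 0.24 ± 0.04 (SD, n = 2) for ESC against 0.30 ± 0.03 (SD, n = 2) for NSC, without overlap (exact permutation p = 0.333). With only 5 kb left out around the bait the difference turned from -0.06 to 0.10. For bait 2 the ESC mean was 1.26 ± 0.19 (SD, n = 3) and NSC was at 0.95 (exact permutation p = 0.5), with a difference of 0.32, or 0.12 against the linked ESC library alone. For the CTCF bait the ESC mean was 1.19 ± 0.34 (SD, n = 2) and NSC was at 1.52 (exact permutation p = 0.667). The difference was -0.34, or -0.10 without ESC replicate 1 and -0.57 without ESC replicate 2. The sides differ in their number of ends. They held 146 and 124 ends for bait 1 (log2 ratio 0.24), 258 and 194 for bait 2 (0.41) and 370 and 362 for the CTCF bait (0.03). The ratio from bait 1 was therefore close to that of the ends alone. In every sample of bait 2, whose segment side holds SATS and not the canonical starts, and of the CTCF bait, whose segment side holds both, the ratio of UMIs was above that of the ends.

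The SATS start, the upstream start of Stag1, was measured with the ends within 5 kb of it, 42 in number. From bait 1 its share was 3.99%, 4.42%, 4.35% and 4.02% in ESC replicates 1 to 4 and 3.70%, 3.59% and 3.64% in NSC replicates 1 to 3. All ESC libraries were above all NSC libraries. The sample means were 4.19% ± 0.259 (SD, n = 2) and 3.63% ± 0.0610 (SD, n = 2), a difference of 0.558 points (exact permutation p = 0.333). With ends within 2.5 kb the difference was 0.0912 points, and with the region narrowed to 500 kb it was 0.0847 points. With all chromosome 9 UMIs as the total it was 1.02 points and with all UMIs 1.05 points, and with each end counted once it was 0.00451 points (exact permutation p = 1.00). From bait 2 the share was 2.82%, 4.25% and 3.77% in ESC and 1.77% (1.47% to 2.14%) in NSC. The ESC mean of 3.62% ± 0.727 (SD, n = 3) was 1.84 points above NSC (exact permutation p = 0.25), and the linked replicate 1 was 1.05 points above it. The difference was 0.958 points with ends within 2.5 kb and 0.595 points with each end counted once (exact permutation p = 0.5). For the CTCF bait the share was 0.622% and 0.794% in ESC and 0.678% in NSC, so the NSC library lay between the ESC libraries.

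The canonical starts also had 42 ends within 5 kb, and they could be read from bait 1 and the CTCF bait, since bait 2 lies next to them. From bait 1 the share was 3.32%, 3.98%, 4.21% and 3.33% in ESC and 3.37%, 3.005% and 3.40% in NSC. The cell types overlapped, with sample means of 3.73% ± 0.570 and 3.20% ± 0.270 (SD, n = 2 each; exact permutation p = 0.667). Within batch 1 the difference was -0.0580 points and within batch 2 it was 1.13 points. For the CTCF bait the share was 0.896% (0.786% to 1.02%) and 0.887% (0.647% to 1.22%) in ESC and 1.50% (1.27% to 1.78%) in NSC. These were 222 and 38 UMIs in ESC and 131 in NSC. The NSC library stood above both ESC libraries by 0.613 points on average, with p = 0.333 in the exact permutation test. The difference was -1.13 points in the region of 500 kb and -0.248 points with all chromosome 9 UMIs as the total. It was -0.133 points with all UMIs (exact permutation p = 0.667) and -0.0843 points with each end counted once (exact permutation p = 1.00). Divided at the first canonical start, the 26 ends below it held 0.472% (0.394% to 0.566%) and 0.467% (0.303% to 0.720%) in ESC and 1.05% (0.852% to 1.28%) in NSC. The 16 ends from the start upwards held 0.424% (0.350% to 0.513%) and 0.420% (0.266% to 0.664%) in ESC and 0.459% (0.338% to 0.625%) in NSC. The NSC library thus stood apart below the canonical starts, on the side of bait 2, and lay within the ESC intervals from the first start upwards.

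Within each library the starts were compared with each other, which needs no total. From bait 1, at nearly equal distances from both, the log2 ratio of SATS to canonical UMIs had a mean of 0.17 ± 0.13 (SD, n = 2) for ESC against 0.19 ± 0.10 (SD, n = 2) for NSC, and the samples overlapped. For the CTCF bait, which lies nearer to SATS, it was -0.53 and -0.16 in ESC and -1.15 in NSC. The canonical starts had more UMIs than SATS in all 3 CTCF bait libraries, and by the widest margin in NSC, where most canonical UMIs lay below the first start. The difference between cell types was 0.81 (exact permutation p = 0.333). It was 0.31 with each end counted once, 0.53 at equal depth (exact permutation p = 0.667) and 1.17 with ends within 2.5 kb (exact permutation p = 0.667).

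**Figure D3:**
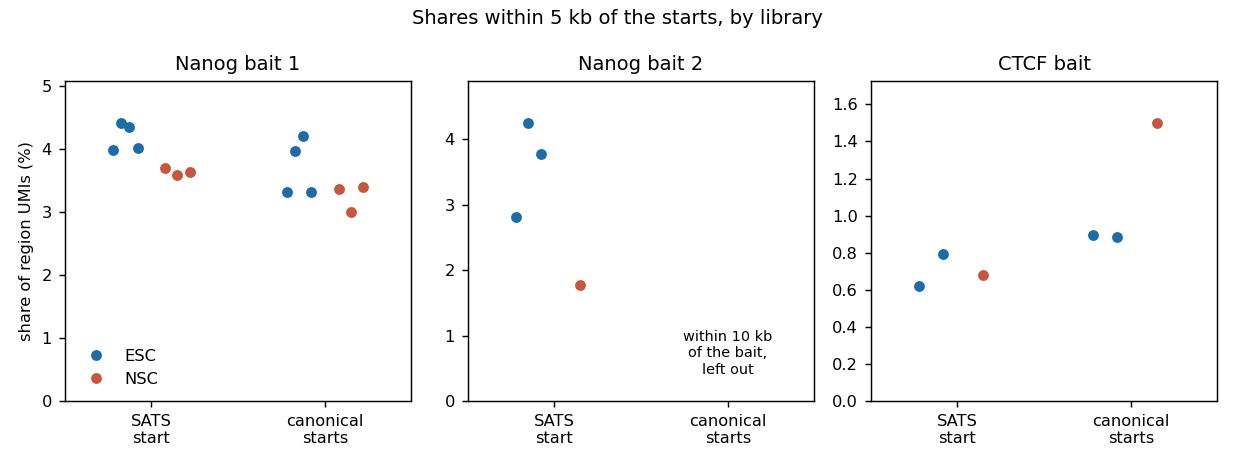
Share of region UMIs (%, y axis) within 5 kb of the SATS start and of the canonical starts (x axis), with 1 point per library, ESC in blue and NSC in red, and a scale of its own for each bait. In the CTCF bait panel the NSC library stands apart within 5 kb of the canonical starts (1.50% against 0.896% and 0.887%), through the ends below the first start, and lies between the ESC libraries at SATS (0.678% against 0.622% and 0.794%).

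In bins of 5 kb the bait 2 profiles of the cell types came together towards the bait on its lower side. Over the 7 bins from the lower edge of the segment to 100615000 the log2 ratio of the ESC to the NSC mean share was 0.72 to 1.07. It was 0.41 at 100620001, 0.33 at 100625001 and 0.10 at 100630001. The last of these bins lies partly in the stretch left out around the bait, and there the cell types overlapped. On the upper side they did not come together, with 0.51 in the nearer bin at 100650001, which is partly left out, and 0.39 at 100655001. Both were without overlap, as were 64.8% of the 310 windows of 5 kb tested in the region. From bait 1 the largest ratio was 0.74, in the bin at 100650001, about 30 kb above the bait. There the share was 1.03%, 1.34%, 1.24% and 0.992% in ESC and 0.702%, 0.676% and 0.687% in NSC.

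In the CTCF bait libraries the bin with the largest ratio in either direction was the one that reaches from 100640001 across the canonical starts. In the bin at 100640001 the share was 0.388% (96 UMIs) and 0.397% (17 UMIs) in ESC and 0.839% (73 UMIs, 0.667% to 1.05%) in NSC, a log2 ratio of -1.10. Per 10 available ends this was 0.218% in ESC and 0.466% in NSC, and no other bin of the segment reached 0.3% in either cell type. Of its 18 ends, 16 lie below the first canonical start, and they held 84 of the 96, 16 of the 17 and 70 of the 73 UMIs. The 54 ends from that start to the upper edge of the segment held 1.22% and 1.12% in ESC and 1.19% in NSC. The next bin upwards, at 100645001, differed little, with 0.497% and 0.560% in ESC and 0.586% in NSC. The bin with the SATS start was the only one with a ratio above 0.5, at 0.64. It rested on ESC replicate 2, at 0.607% (26 UMIs), since replicate 1 was at 0.250% (62 UMIs) and NSC at 0.276% (24 UMIs).

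**Figure D4:**
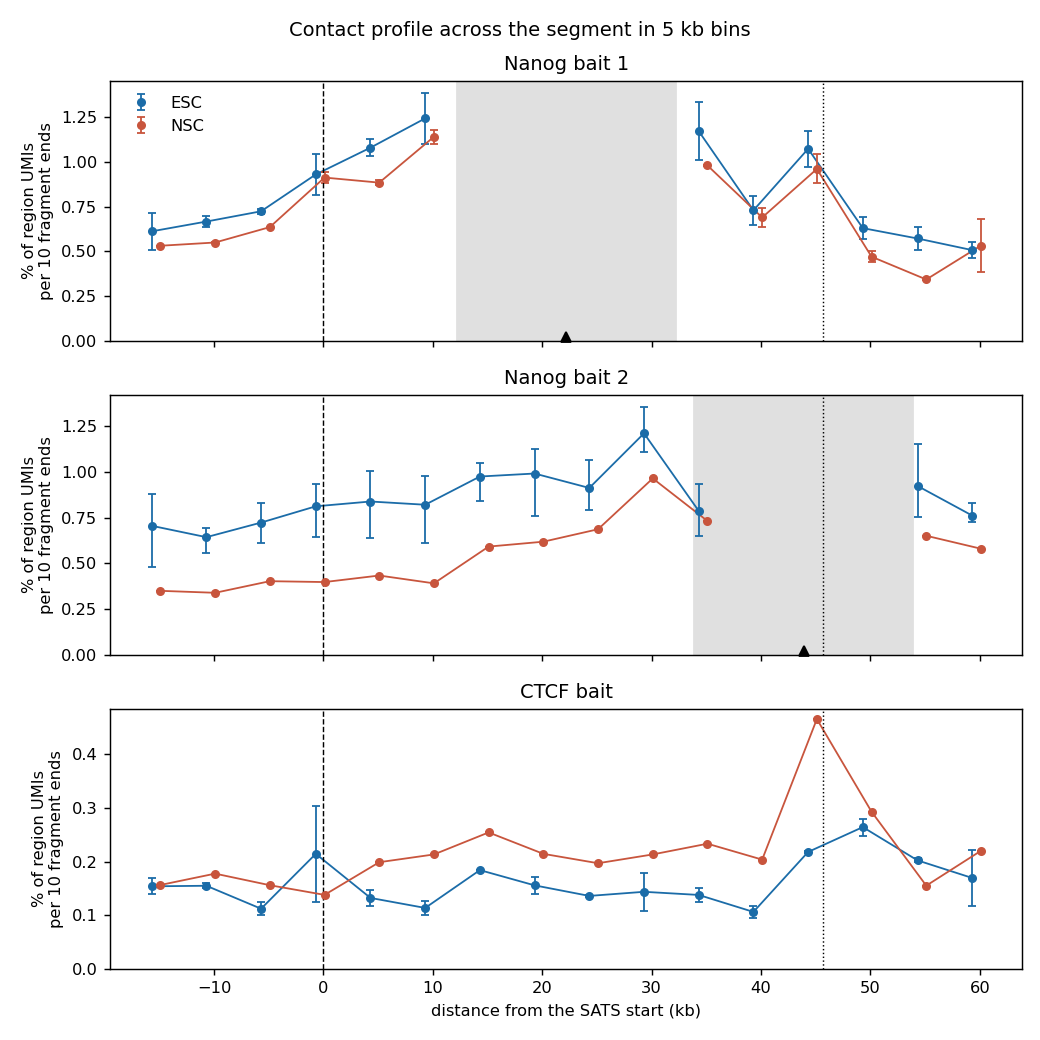
Share of region UMIs per 10 available fragment ends (%, y axis) in 5 kb bins against distance from the SATS start (kb, x axis), as the mean over samples, with bars from the lowest to the highest sample; NSC has 1 sample from bait 2 and the CTCF bait and hence no bars there. Dashed and dotted lines mark the SATS and first canonical starts, triangles the baits and grey the 10 kb left out on either side. Below bait 2 its profiles meet next to the stretch left out, above it ESC stay higher, and the CTCF bait profile of NSC peaks in the bin at the canonical starts (0.466% against 0.218%), whose UMIs lie mostly below the first start.

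Windows of 10 kb were tested over the whole region with edgeR, and a window was called at an adjusted p under 0.05. From bait 1, 6 windows of the segment were tested, and 0 were called, against 9.60% of the 198 windows of the region. The log2 fold changes of ESC over NSC in the segment lay between 0.09 and 0.41, all positive, with a median of 0.21. The median of all 198 windows was -0.41, so most windows of the region had the larger share in NSC. ESC and NSC did not overlap in 4 of the 6 windows, against 68.2% of all windows. The lowest adjusted p, 0.111, belonged to the window at 100650001 (log2 fold change 0.41 ± 0.18 SE). It was the only one of the 6 with an unadjusted p under 0.05, against 68 of all 198. The log2 fold change of this window lay between 0.22 and 0.58 when 1 sample was left out. Under DESeq2, which differs in its size factors and its model, the median of all windows was -0.11. There 5 of the 6 windows were called (lowest adjusted p = 0.0477), all higher in ESC, and 23 of 198 in the region. With TMM factors in edgeR the median was -0.07, and 1 of the 6 was called, against 34 of 198. Of the called windows of the region, 4 were higher and 15 lower in ESC by region totals, 25 and 9 under TMM factors, and 23 and 0 under DESeq2.

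From bait 2, 7 windows of the segment were tested and 0 called by edgeR, against 0% of 194 windows. Their log2 fold changes were 0.10 to 0.95, all positive, with a median of 0.68 against -0.62 for all windows. The windows at 100630001 (0.10, 189 UMIs) and 100650001 (0.44, 411 UMIs) lay partly in the stretch left out around the bait. The lone NSC library was assumed to vary as the ESC libraries did. The 4 windows farthest below the bait had an unadjusted p under 0.05, as had 25 of all 194, at 0.95 ± 0.31 SE (100580001), 0.90 ± 0.26 (100590001, with the SATS start), 0.95 ± 0.30 (100600001) and 0.68 ± 0.26 (100610001). Their adjusted p was 0.262 for the first 3 and 0.302 for the last. In the window with the SATS start the share was 3.01%, 4.19% and 3.74% in ESC and 1.92% in NSC. ESC and NSC did not overlap in 6 of the 7 windows, against 78.4% of all windows. Without ESC replicate 1, edgeR called 4 of the 7 windows (lowest adjusted p = 2.80e-04) and 22 of 172 in the region, 8 of them higher and 14 lower in ESC. DESeq2 with all libraries called 6 of the 7 (lowest adjusted p = 0.00176) and 11 of 194 in the region, all higher in ESC.

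From the CTCF bait, 8 windows of the segment were tested and 0 called by edgeR, against 1.50% of 200 windows. The lone NSC library was assumed here too to vary as the ESC libraries did, and the spread came from 2 ESC libraries. Of the 8, 7 had a negative log2 fold change (5 of 8 under TMM or DESeq2 factors), and the median was -0.49 against -0.12 for all windows. The strongest was the window at 100630001, just below the canonical starts, at -0.80 ± 0.24 SE with an adjusted p of 0.0539. It held 0.695% and 0.654% in ESC and 1.19% (0.987% to 1.45%) in NSC. The windows at 100640001 (-0.66 ± 0.27), 100600001 (-0.59 ± 0.21) and 100610001 (-0.52 ± 0.24) also had an unadjusted p under 0.05, as had 31 of all 200. The window with the SATS start was at -0.13 ± 0.23 and the last window of the segment at 0.19 ± 0.22. ESC and NSC did not overlap in 5 of the 8 windows, against 73.0% of all windows. With the region narrowed to 500 kb, 5 windows were called, all higher in NSC, from 100600001 to 100650000, among 10 of 100 called in that region (5 in each direction). DESeq2 called 0, and 0 at an unadjusted p under 0.05.

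**Figure D5:**
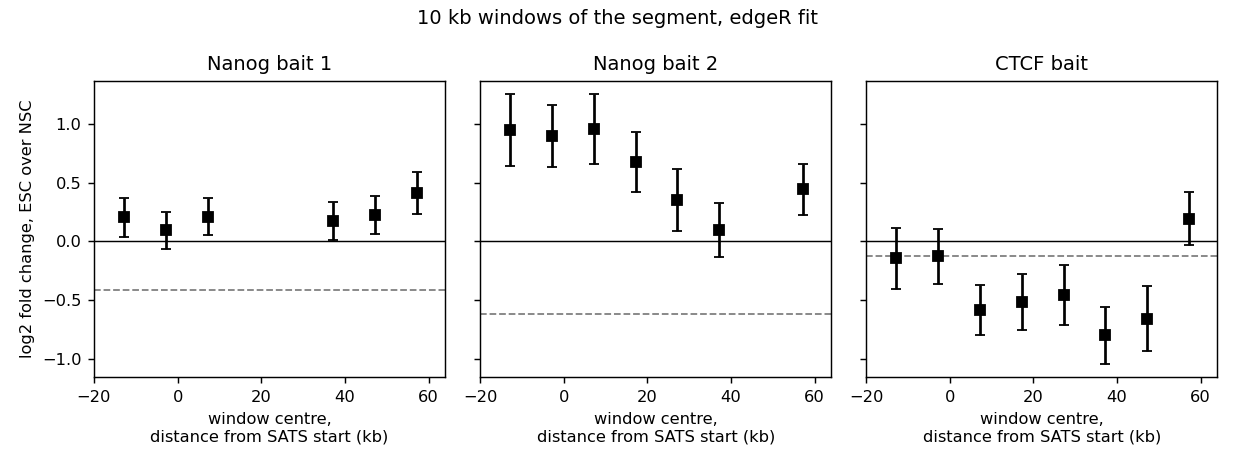
Log2 fold change of ESC over NSC from edgeR (y axis), with bars of 1 SE, in the 10 kb windows of the segment against distance of the window centre from the SATS start (kb, x axis), in 1 panel per bait. The solid line is 0 and the dashed line the median of all windows of the region (-0.41, -0.62 and -0.12). No window was called; the windows lie above 0 from the Nanog baits and 7 of 8 lie below 0 from the CTCF bait (5 of 8 under TMM or DESeq2 factors).

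Whether the cell type difference itself differed between baits was tested as an interaction in edgeR, in windows that both baits could see. Between bait 2 and the CTCF bait 5 windows were tested, with differences of 0.83 to 1.57 on the log2 scale, and 0 were called, against 0% of 174 windows. The largest was in the window at 100600001, 1.57 ± 0.43 SE (adjusted p = 0.216), and 4 of the 5 had an unadjusted p under 0.05, against 16 of all 174. In windows of 20 kb, 1 of 2 was called (adjusted p = 0.00409), the only one called among 85. Both baits have 1 NSC library, so this difference sets single NSC samples against each other, with the spread taken from the ESC libraries. Between bait 1 and the CTCF bait the differences in 5 windows were 0.20 to 0.98, and 0 were called, against 0.565% of 177 windows. The windows at 100630001 and 100640001 were at 0.98 ± 0.35 and 0.89 ± 0.30 (adjusted p = 0.287 for both), the 2 with an unadjusted p under 0.05, against 14 of all 177. Between the Nanog baits only the 2 windows from 100580001 to 100600000 could be compared, at -0.72 ± 0.32 and -0.79 ± 0.27 (adjusted p = 0.883), with 0 called against 0% of 190 windows. Both had an unadjusted p under 0.05, as had 9 of all 190.

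Among single ends, the highest mean share, with the cell types weighted equally, belonged from both Nanog baits to the same end, 100630326. This end lies in the intron between the starts, 10.3 kb from bait 1 and 11.4 kb from bait 2. From bait 1 it had 26, 10, 16 and 27 UMIs in ESC replicates 1 to 4 and 14, 12 and 14 in NSC replicates 1 to 3. Its share was 0.261% in ESC and 0.252% in NSC, so it did not separate the cell types. In ESC alone the end at 100609329 had a higher mean, at 0.278%. From bait 2 the end at 100630326 had 22, 10 and 6 UMIs in ESC and 12 in NSC. Its mean share there was 0.227% against 0.226% for 100629627, which was higher in NSC (0.232% against 0.199%). The next ends from bait 1, at 100634855, 100632341, 100609329 and 100606015, lay 10.7 to 14.9 kb from the bait. From bait 2 the next were 100629627, 100629628, 100627945 and 100631372, 10.3 to 13.8 kb away. All lay in the introns of Stag1.

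In the CTCF bait libraries, the end with the highest mean share was 100641698, the end that serves as Nanog bait 2. It had 7 and 6 UMIs in ESC and 5 in NSC, out of 252 to 1440 UMIs in the segment. In ESC replicate 2 it ranked first of 179 ends, 6 UMIs against a median of 1.00 among the listed ends within 5 kb. In ESC replicate 1 it ranked 31st of 330, and in NSC 12th of 295. The value therefore rested mostly on the shallower ESC library. The paired end of the same cut site, 100641699, had 7, 1 and 4 UMIs. The other leading ends were 100585833, upstream of Stag1, and 100641139, 100638559 and 100615717, in its introns, with 1 to 8 UMIs each.

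The Nanog baits were also seen from each other, 21.7 kb apart. From bait 1, the end of bait 2 had 13, 3, 7 and 13 UMIs in ESC and 6 in each NSC library. From bait 2, the end of bait 1 had 9, 5 and 8 UMIs in ESC and 6 in NSC. The paired end of the bait 1 site had 0 UMIs in all libraries of bait 2 and the CTCF bait. It belongs to a fragment of 16 bases, whose other GATC is visible in the bait 1 sequence shown above, and the end of bait 1 itself lies on a fragment of 877 bases. Seen from bait 1, the ends within 5 kb of bait 2 took 4.15% ± 0.617 (SD, n = 2) for ESC against 3.72% ± 0.347 (SD, n = 2) for NSC, with overlap. Seen from the CTCF bait, they took 0.808% (0.703% to 0.927%) and 0.864% (0.628% to 1.19%) in the ESC libraries. The NSC library was higher, at 1.55% (1.31% to 1.83%; exact permutation p = 0.333). The ends within 5 kb of bait 1 took 0.808% and 0.887% in the ESC libraries of the CTCF bait, and the NSC library was at 1.19% (0.987% to 1.45%), which overlaps the wider ESC interval (0.647% to 1.22%).

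Recovery of single ends differed between baits. From bait 1, 84.3% of 254 ends with a UMI were seen in every library, and from bait 2, 85.9% of 270. For the CTCF bait it was 44.4% of 342, and the share of segment ends with a single UMI there ranged from 10.3% in the deepest library to 70.4% in ESC replicate 2. Single ends were not tested between the cell types.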

How the data were processed

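UMI-4C libraries of 3 baits were analysed in mouse ESC and NSC. Per the labels, the libraries were pooled and sequenced. The authors deposited 1 table per library that pairs fragment ends and gives a count of UMIs per pair, not normalised. The submitters' processing notes name Bowtie2 and mm10, and the rule for collapsing UMIs and the filters are not given in the sources used here. Listed ends lie at GATC sites of GRCm38, the assembly of mm10.

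Rows with the commonest second end, the bait, were kept, so that each pair entered once, and ends closer to the bait than 10 kb were dropped. Short fragments carry few or no mapped reads, and counts of an end can saturate with depth. Genes were taken from GENCODE vM21 on GRCm38, and promoters from RefSeq.

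Groups came from the titles. Libraries that shared more than 50% of their ends on other chromosomes were averaged as 1 sample, and those that shared over 1% were called linked. Shares and log2 ratios were compared by two-sided exact permutation tests. In R 4.3.3, edgeR 4.0.16 (with limma 3.58.1) fitted its quasi-likelihood model to the counts of windows of 10 kb that held at least 10 UMIs. Region UMIs were the library sizes, averaged counts were rounded, and p-values were adjusted after Benjamini-Hochberg over all windows of the region. The window test was also run on simulated counts of independent libraries with an assumed spread. That run does not cover linked or averaged libraries, and its outcome is not given here. DESeq2 1.42.0 and other windows, regions, totals, depths and samples were alternatives.

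Named were all windows of the segment that passed the filter, the 5 ends with the highest mean share per bait, the starts, the other baits and the neighbouring 80 kb. The segment and these lists were chosen with earlier results of these data known. The sequence around the starts, the 5 kb bins singled out, the division at the first canonical start and the search for CTCF letters were chosen after values were seen.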

Additional observations from a re-analysis of the deposited data

Results flagged for a closer look

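In the places below the difference between ESC and NSC ran one way from a Nanog bait and the other way from the CTCF bait. Every ESC sample lay on the same side of every NSC sample of its bait. Such separation was common, in 68.2% of all 10 kb windows of the region from bait 1, 78.4% from bait 2 and 73.0% from the CTCF bait. How many windows of the region ran opposite ways between baits was not counted. In the share of the whole segment, ESC were 3.14 points higher from Nanog bait 1 and 8.97 points higher from Nanog bait 2, against -1.97 points from the CTCF bait. The opposite direction was lost with all UMIs as the total, where the CTCF bait gave 0.0111 points, and bait 1 gave 0.181 points with each end counted once and 0.613 points in the region of 500 kb. Whether these differences in share themselves differ between baits was not tested.

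In the window at 100600001, the log2 fold change of ESC over NSC was 0.21 from Nanog bait 1 and 0.95 from Nanog bait 2, against -0.59 from the CTCF bait. The interaction in edgeR between bait 2 and the CTCF bait had an adjusted p of 0.216 there, and between bait 1 and the CTCF bait it was not tested, since the window reaches the stretch left out around bait 1. In the window at 100640001, with the canonical starts, it was 0.23 from Nanog bait 1 and -0.66 from the CTCF bait (edgeR interaction, adjusted p = 0.287). With each end counted once, bait 1 gave -0.0120 in the window at 100600001 and -0.0509 in the window at 100640001. Its direction was then no longer opposite to that of the CTCF bait. However, 84.3% of the bait 1 ends with a UMI were seen in every library, so this count can differ little between the cell types. In the window at 100610001 it was 0.68 from Nanog bait 2 and -0.52 from the CTCF bait (adjusted p = 0.300). In the window at 100620001 it was 0.35 and -0.46 (adjusted p = 0.565).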

How the results depend on the processing

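With so few samples no share reached p = 0.05 in the exact tests, and the cause of the changes below was not tested. Keeping to that side of the threshold therefore says nothing about stability. Of the recomputed shares and ratios, 12 reversed, 1 passed the threshold and the other 150 did neither. With every file as a replicate, the SATS share from bait 1 was 0.550 points higher in ESC (exact permutation p = 0.0286), with repeat libraries counted separately. The canonical share from bait 1 reversed to -0.0580 points within batch 1. The SATS to canonical log2 ratio from bait 1, at -0.01, became 0.0190 with every file, 0.0662 at equal depth and 0.150 within batch 1, and lay between -0.106 and 0.0808 when 1 sample was left out. The mirror log2 ratio from bait 1, at -0.06, became 0.103 with 5 kb left out and 0.00556 with each end counted once. The segment share from the CTCF bait became 0.0111 points with all UMIs as the total. The SATS share from the CTCF bait, at 0.03 points, became -0.0608 in the region of 500 kb and -0.0559 against the linked ESC library alone, and lay between -0.0559 and 0.116 when 1 ESC library was left out.

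Among the recomputed counts of called windows, 36 stayed at 0 and 12 did not. From bait 1, 1 window was called in windows of 5 kb (12 of 375 in the region), with TMM factors (34 of 198) and with every file (77 of 198), and 5 with DESeq2 (23 of 198). From bait 2, 2 windows were called in windows of 20 kb (5 of 100 in the region), 3 with TMM factors (4 of 194), 6 with DESeq2 (11 of 194), and 0 to 4 when 1 ESC library was left out (4 without replicate 1, and 22 of 172 in the region). From the CTCF bait, 2 were called in windows of 20 kb (13 of 101 in the region, 9 higher in ESC and 4 in NSC) and 5 in the region of 500 kb (10 of 100). The difference between bait 2 and the CTCF bait was called in 1 window of 20 kb. Replicate numbers do not pair the bait 1 samples, since replicate 3 of each cell type repeats another number. With the replicate number as a block, the bait 1 segment share differed by 4.07 points (exact permutation p = 0.250) and 1 window was called, against 60 of 198 in the region. No paired analysis was possible for the other baits because each has 1 NSC library.

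Of the single windows, counted from 1 at the lower edge of the segment, 15 values reversed. From bait 1 in the region of 500 kb, window 2 was at -0.0814 and window 6 at -0.0104. With each end counted once, windows 2, 3, 6 and 7 were at -0.0149, -0.0120, -0.0124 and -0.0509. Window 6 lay between -0.00522 and 0.371 when 1 sample was left out. From bait 2, window 6, which lies partly in the stretch left out around the bait, was at -0.0708 in the region of 500 kb. From the CTCF bait, window 1 was at 0.0236 with TMM factors and 0.0509 with DESeq2. Window 2 was at 0.0637 with TMM factors, 0.196 with DESeq2, 0.0782 with each end counted once and 0.0487 at equal depth. Window 8 was at -0.0570 with each end counted once. Over all windows of the region, the median log2 fold change of bait 1 moved from -0.41 to -0.07 with TMM factors and -0.11 with DESeq2, that of bait 2 from -0.62 to -0.27 and -0.14, and that of the CTCF bait from -0.12 to 0.03 and -0.03.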

Other observations

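The segment divides at its starts into 92 ends upstream of SATS, the intronic stretch from SATS to the first canonical start, and the ends from the canonical start upwards. Among the segment UMIs of bait 1, the upstream stretch held between 26.6% and 29.0% over the libraries of both cell types. In the bait 2 libraries it held 25.1%, 26.8% and 27.0% in ESC and 21.6% in NSC. In the CTCF bait libraries it held 21.9% and 25.4% in ESC and 18.6% in NSC. There the intronic stretch between the starts held 57.0% and 55.6% in ESC and 66.1% in NSC, and the ends from the canonical start upwards held 21.0% and 19.0% in ESC and 15.3% in NSC. With 1 NSC library each, the difference in these shares was not tested for bait 2 and the CTCF bait.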
